A study of Mus musculus with 8 samples.

Results

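The genes described here are 42 genes of the cell cycle, most of them carrying out DNA replication or mitosis. They were chosen by gene symbol from a fixed list, and all 42 were found among the 20057 genes of the table. By role they comprise 2 proliferation markers, 6 cyclins, kinases and regulators of G1 and S phase, 9 proteins of replication licensing and of the replication fork, 3 enzymes of deoxynucleotide synthesis, 6 regulators of mitotic entry, 3 components of the spindle checkpoint, 5 proteins of the centromere and the chromosomal passenger complex, 6 proteins of the spindle and of cytokinesis, and 2 inhibitors of cyclin-dependent kinases (CDK). Expression was measured in tumor endothelial cells from 8 tumors, and the question was whether treatment with an agonistic CD40 antibody changed it.

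Male C57BL/6 mice, 8 weeks old, carried subcutaneous tumors grown from 250000 cells of the melanoma line B16-F10. In each group 4 mice were used, and antibody was injected beside the tumor 2 times, on days 13 and 16, at 30 µg per injection. The treated group received the agonistic CD40 mAb FGK4.5, named anti-CD40 in the labels, and the control group the rat IgG2a isotype control 2A3, so the antibody was the only labelled difference and there was no untreated group. The labels place the sacrifice on the day after the second injection, but the study's methods speak of more than a single harvest day, and the day of each library was not given in the sources used here. Live CD45-CD31+ cells (approximately 100000 per tumor) were sorted as tumor endothelial cells, and 10 ng of RNA per tumor was made into 1 library. The libraries are named after the mice: 5N, 6L, 6R and 10N were treated with agonistic CD40 mAb, and 5L, 7N, 8N and 9L with isotype control. Values are normalized read counts per gene and library, called normalized reads below.

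A dividing cell licenses its replication origins in G1, copies its DNA in S phase and separates the chromosomes in mitosis, and at each step cyclins activate CDKs while inhibitors such as p21 and p27 hold them back. The E2F factors, released from the RB protein, drive the S phase genes, whereas the mitotic genes are switched on later, through promoter elements named the cell cycle genes homology region (CHR) and the CCAAT box, by MuvB complexes and the factor NF-Y. Most endothelial cells of adult vessels rest outside the cycle, and those of growing tumor vessels divide. Melanoma cells divide too and use the same genes.

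Promoters of these genes share short elements, and 4 are shown because they carry the elements of an S phase gene (Mcm6) and of mitotic genes (Ccnb2, Cdk1 and Top2a). The stretches were taken from RefSeq (GRCm38.p6), reach from 140 bases before to 30 bases after the annotated start of transcription, and are written 5′ to 3′ on the strand of the gene, which is the minus strand for all 4. They lie at chr1:128359676-128359845 (Mcm6), chr9:70421525-70421694 (Ccnb2), chr10:69352883-69353052 (Cdk1) and chr11:99024160-99024329 (Top2a). Capitals mark matches on either strand to the letters TTTGAA or TTTAAA (CHR), TTTGGCGC or TTTCGCGC (E2F) and CCAAT. On the other strand the CHR reads TTCAAA. Likewise, the reversed CCAAT box reads ATTGG. In Mcm6, E2F matches of opposite strands overlap in a single run.
Mcm6: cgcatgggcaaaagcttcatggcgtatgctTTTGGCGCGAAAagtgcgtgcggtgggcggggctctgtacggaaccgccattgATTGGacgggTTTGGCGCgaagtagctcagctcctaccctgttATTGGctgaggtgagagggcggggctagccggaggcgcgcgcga
Ccnb2: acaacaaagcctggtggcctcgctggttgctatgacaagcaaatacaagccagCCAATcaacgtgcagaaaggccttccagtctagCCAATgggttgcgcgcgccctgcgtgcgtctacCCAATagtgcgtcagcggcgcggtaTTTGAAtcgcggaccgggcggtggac
Cdk1: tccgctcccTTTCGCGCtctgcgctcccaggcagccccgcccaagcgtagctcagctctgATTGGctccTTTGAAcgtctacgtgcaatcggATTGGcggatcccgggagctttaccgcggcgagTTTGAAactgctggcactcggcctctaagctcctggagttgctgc
Top2a: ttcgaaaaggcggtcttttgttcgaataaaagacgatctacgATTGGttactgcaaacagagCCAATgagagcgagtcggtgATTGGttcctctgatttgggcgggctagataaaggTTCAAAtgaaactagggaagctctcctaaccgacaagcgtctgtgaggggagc
A promoter window of 300 bases was found for 34 of the 42 genes, and a gene was counted where any of its windows held a match. A CCAAT box was found in 27 of the 34 (79.4%), against 41.1% of the 27025 genes with a RefSeq promoter window. A CHR match was found in 22 of the 34 (64.7%), against 30.6% of all genes with a window. An E2F match was found in 5 of the 34 (14.7%), against 0.929%. By role, a CHR match was found for 16 of the 18 mitosis genes and proliferation markers with a window (88.9%). It was found for 5 of the 14 G1, S phase, replication and deoxynucleotide genes with a window (35.7%). A match is only a run of letters and was not tested as a binding site.

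The libraries held between 2971689 and 64938728 reads on genes, with the 3 shallowest in the isotype control group, and even the least abundant gene of the list, Cdc25c, rested on at least 27 reads per library. Of the 12 endothelial markers, all were expressed in every library, with sums between 39917 and 66184 normalized reads. The sorted cells also carried RNA of other cells. The 10 melanoma markers summed to between 37496 and 98888 normalized reads, highest in the isotype library 5L, and their groups overlapped. By sign, all 10 were lower in the treated group and 11 of the 12 endothelial markers higher, where 48.7% of all genes tested were lower. Fibroblast markers summed to between 88497 and 249100, lowest in 5L, mural cell markers to between 11329 and 36095, and lymphatic endothelial markers to between 2124 and 5700. Leukocyte markers summed to between 75.8 and 207, macrophage markers to between 204 and 522, T and NK cell markers to between 0 and 15.04, and B cell markers to between 0 and 7.82. Ptprc, which encodes the CD45 used to exclude leukocytes, had between 0 and 21.1 normalized reads, and Cd3d and Pax5 were at 0 in all 8 libraries. Of all these markers a single gene was called, where 1.28% of all genes tested were called higher and 0.239% lower. It was Mrc1, listed here with the macrophage markers (adjusted p = 0.9997 with limma). Mrc1 had 39.0 ± 2.94 normalized reads in the treated and 22.4 ± 7.46 in the control libraries (SD, n = 4), and the groups did not overlap. By sign, 6 of the 9 macrophage markers lay above 0. Besides Mrc1 (log2 fold change 0.83) these were Lyz2 (0.79), C1qb (0.58), C1qa (0.55), Fcgr1 (0.54) and Adgre1 (0.14). The log2 fold changes of Csf1r, Cd68 and C1qc lay between -0.08 and -0.05. All 6 lymphatic endothelial markers were above 0 too, and none of them was called. In bulk RNA, fewer cells of a type and less RNA per cell cannot be told apart, and neither can cell cycle RNA of endothelial cells and of melanoma cells.

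Agonistic CD40 mAb treatment did not detectably change any of the 42 cell cycle genes. All 42 were abundant enough to be tested with limma, and 0 passed the call rule, in which the group means differ at least 1.5-fold and the unadjusted p does not exceed 0.05. Among all 12969 genes tested, 1.28% were called higher and 0.239% lower, and these 31 lower genes became 123 without 5L. No cell cycle gene reached an unadjusted p of 0.05 with limma, with edgeR or with DESeq2, where 2.01% of all genes did with limma, and none had an adjusted p under 0.05, where 0.0154% of all genes did. In none of the 42 did the values of the groups separate, against 1.57% of all genes. No gene was called when any single library was left out either, although without 5N Mki67, and without 7N Birc5, Cdkn1b and E2f1, had an unadjusted limma p under 0.05. The lowest limma p with all libraries was 0.224, for Rrm1, and the smallest two-sided exact permutation p was 0.257. The 4 against 4 design allows an exact p as low as 0.0286.

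The log2 fold changes, given as agonistic CD40 mAb minus isotype control on log2(normalized reads + 1), lay between -0.37 (Mki67) and 0.25 (Cdc20), with a median of -0.05 against 0.00 for all genes tested. By sign alone, 12 genes were above 0 and 30 below (71.4%, against 48.7% of all genes tested), and without 5L 33 were above and 9 below. The 95% interval of the fold change included 0 for all 42. It lay within 1.5-fold in either direction for 30 of them (71.4%), close to the 70.2% of the 9742 tested genes that were at least as abundant as the least abundant member. It lay within 2-fold for 40 of them (95.2%), and the exceptions, Mki67 and Cenpe, had lower limits of -1.03 and -1.10. A p that misses the threshold does not show that the groups are alike, and for single genes changes below these limits could not be told from the spread between tumors.

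**Figure D1:**
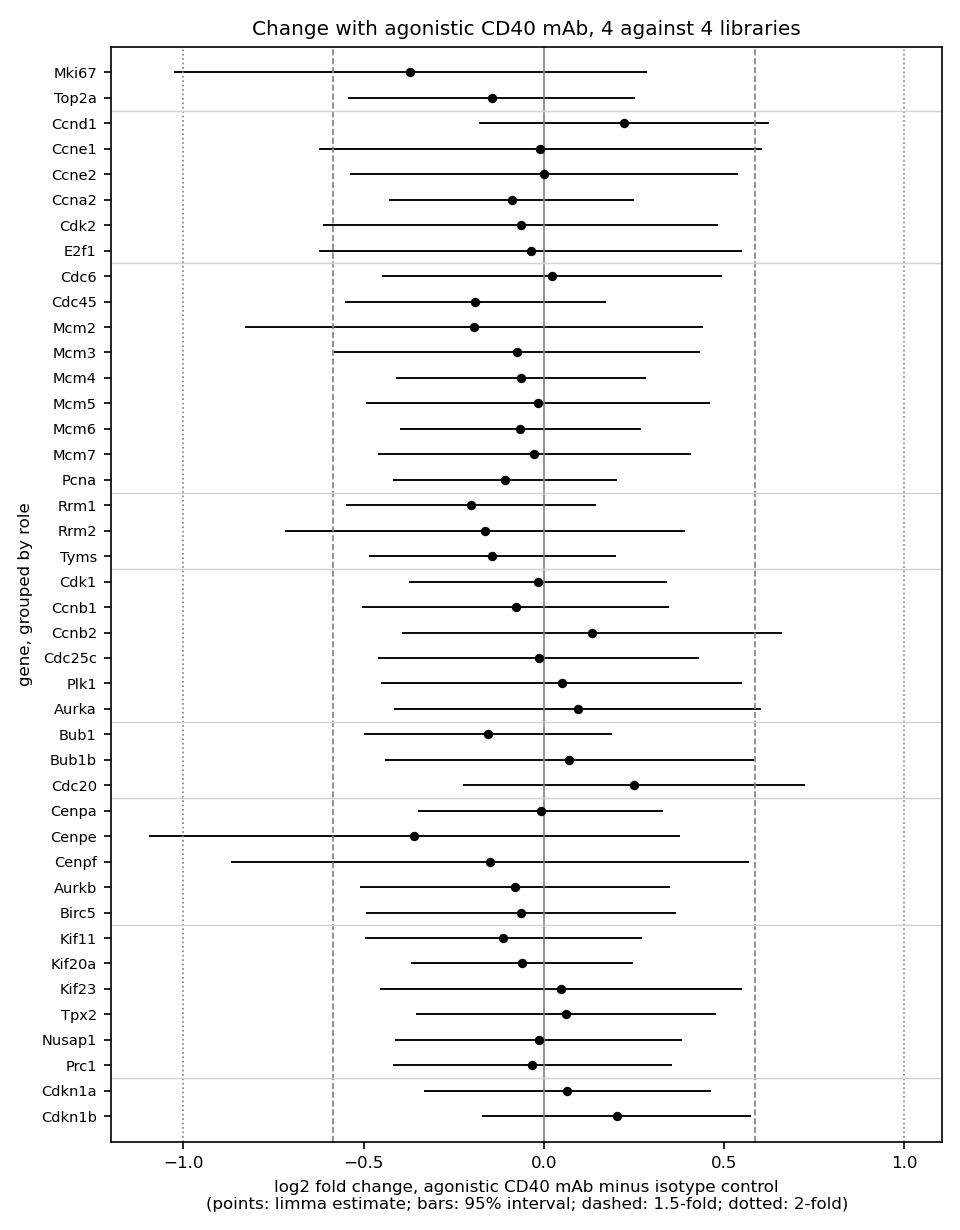
Log2 fold change of each of the 42 genes, agonistic CD40 mAb minus isotype control (horizontal axis, log2 units), with genes grouped by role on the vertical axis. Points are limma estimates and bars 95% intervals, dashed lines mark 1.5-fold and dotted lines 2-fold changes, and all 42 intervals cross 0.

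Mki67 and Top2a are the usual markers of proliferation: Mki67 encodes Ki-67, which coats mitotic chromosomes, and Top2a the topoisomerase that untangles replicated DNA. Mki67 (chromosome 7, 135689784 to 135716361, minus strand of GRCm38, also known as mm10) was at 3966, 2819, 1183 and 2477 normalized reads in 5N, 6L, 6R and 10N, and at 3507, 2745, 2856 and 3331 in 5L, 7N, 8N and 9L. The treated libraries thus held both the highest and the lowest value. The means were 2611 ± 1145 for the treated and 3110 ± 367 for the control libraries (SD, n = 4 each), with a log2 fold change of -0.37 (standard error 0.30, adjusted p = 0.9997 with limma and Benjamini-Hochberg adjustment). The log2 fold change was -0.03 without 6R and -0.61 without 5N. Top2a (chromosome 11, 98992943 to 99024189), whose promoter is printed above, was at 2830, 1930, 2022 and 2113 in the treated libraries and at 3387, 2096, 2352 and 2083 in the controls. The groups overlapped, and the highest values came from 5L and 5N, 1 of each group. Its log2 fold change was -0.14 (standard error 0.18), and without 5L it was 0.02.

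The regulators of G1 and S phase spread around no change, with a median log2 fold change of -0.02. Ccnd1 encodes cyclin D1, which links growth factor signals to the start of the cycle, and per kilobase of transcript it was the most abundant of the 42, at 941 normalized reads per kilobase averaged over all libraries. Its values were 3987, 3806, 3912 and 3293 in the treated libraries and 3749, 2132, 3715 and 3562 in the controls. Of these, 7N stood apart below the rest, and the other 7 libraries overlapped. With a standard error of 0.18 the log2 fold change came to 0.22, and to 0.03 without 7N. The cyclins E, which activate Cdk2 at the start of S phase, had mean values of 160 ± 36.4 against 167 ± 60.9 (Ccne1) and of 140 ± 43.3 against 139 ± 31.2 (Ccne2) normalized reads (SD, n = 4). Ccna2, the S phase cyclin A2, had 957 ± 152 against 1019 ± 167, and E2f1, the transcription factor that drives S phase genes, 259 ± 34.8 against 280 ± 96.2. Cdk2 had 1561, 1166, 1881 and 1747 normalized reads in the treated libraries and 2825, 1325, 1503 and 1269 in the controls, with 5L highest. The exons of Cdk2 overlap those of the melanoma gene Pmel on the opposite strand by 34 bases. Pmel had 18500 normalized reads in 5L and between 5736 and 12210 in the others, and the part of its reads in the Cdk2 values was not tested.

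Genes of replication licensing and of the fork lay below 0 by sign in 8 of 9 cases, where 48.7% of all genes tested did, and none passed the test. Without 5L the sign turned, and all but Cdc45 lay above 0, between 0.00 (Pcna) and 0.20 (Mcm5). The MCM proteins form the helicase that is loaded at origins and opens the DNA, and Mcm6 (chromosome 1, 128331590 to 128359664) was the most abundant of them in normalized reads. It had 1587, 1366, 1509 and 1345 normalized reads after agonistic CD40 mAb, and 2023, 1268, 1541 and 1334 in the controls. The treated libraries lay inside the range of the controls. The log2 fold change was -0.07 (standard error 0.15), with a 95% interval of -0.40 to 0.27. Mcm2, Mcm3, Mcm4, Mcm5 and Mcm7 had log2 fold changes between -0.19 (Mcm2) and -0.02 (Mcm5). All 6 were highest in 5L, and all but Mcm4 lowest in 7N. Mcm2 differed most between libraries, 3.22-fold from the lowest to the highest, with 2412 in 5L and 749 in 7N. Cdc45, which joins MCM in the active helicase, had the lowest p of the group. Its values were 230, 168, 182 and 157 in the treated libraries and 237, 178, 207 and 215 in the controls, which overlapped. The log2 fold change was -0.19 (standard error 0.16), with an exact permutation p of 0.257. It was -0.30 without 5N and -0.12 without 10N. Cdc6, which loads MCM at origins, had a log2 fold change of 0.02, and Pcna, the sliding clamp of the DNA polymerases, of -0.11.

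The 3 enzymes of deoxynucleotide synthesis were all below 0 by sign, and none passed the test. Rrm1, the large subunit of ribonucleotide reductase, had the lowest p of the 42 genes. It was at 1734, 1301, 1508 and 1433 normalized reads after agonistic CD40 mAb and at 2273, 1532, 1719 and 1430 in the controls, so that the control range covered all treated libraries but 6L. The means were 1494 ± 182 and 1739 ± 376 (SD, n = 4 each). Its log2 fold change was -0.20 (standard error 0.16), and -0.07 without 5L. Rrm2, the small subunit, which is made in S phase, had 1637 normalized reads in 5L, where the other 7 libraries lay between 657 and 913. Its log2 fold change was -0.16 with all libraries and 0.12 without 5L. Tyms, which makes thymidylate, had a log2 fold change of -0.14.

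The regulators of mitotic entry had a median log2 fold change of 0.02. Cdk1 is the kinase that starts mitosis, and cyclins B1 and B2 are its partners. Cdk1 (chromosome 10, 69335146 to 69352938) had 871, 631, 733 and 724 normalized reads after agonistic CD40 mAb and 916, 562, 753 and 789 in the controls. The treated libraries again lay inside the range of the controls, and its log2 fold change of -0.02 (standard error 0.16) had a 95% interval of -0.37 to 0.34. Ccnb2 (chromosome 9, 70407692 to 70421547) had 448, 376, 478 and 411 in the treated libraries and 491, 219, 430 and 492 in the controls. Here 7N stood below the other 7, and without it the log2 fold change went from 0.13 to -0.14. Ccnb1 had a log2 fold change of -0.08. The phosphatase gene Cdc25c, which activates Cdk1, had 80.2 ± 10.4 against 81.5 ± 14.7 normalized reads (SD, n = 4), the lowest level of the 42 per kilobase of transcript. The mitotic kinases Plk1 and Aurka had log2 fold changes of 0.05 and 0.09.

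Components of the spindle checkpoint and its target had log2 fold changes between -0.16 (Bub1) and 0.25 (Cdc20). Bub1b encodes BubR1, which holds back chromosome separation until all kinetochores are attached, and Cdc20 activates the ubiquitin ligase that ends the arrest. Bub1b had 679, 495, 528 and 525 normalized reads in treated libraries and 701, 314, 656 and 531 in the controls, overlapping, with a log2 fold change of 0.07 (standard error 0.23). Cdc20, which had the largest log2 fold change above 0 of the 42, was at 352, 283, 370 and 314 in the treated libraries and at 306, 171, 351 and 314 in the controls. All libraries but 7N lay between 283 and 370. The log2 fold change was 0.25 (standard error 0.22, exact permutation p = 0.429), and 0.02 without 7N. Bub1, the kinase of the checkpoint, was at 682 normalized reads in 5L and between 414 and 536 in the others.

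In the group of the centromere and the chromosomal passengers a single treated library, 6R, lay below the others for the large proteins. Cenpe is the kinetochore motor that aligns chromosomes, and Cenpf a large protein of the outer kinetochore. Cenpe had 639, 519, 178 and 469 normalized reads after agonistic CD40 mAb, and 543, 459, 466 and 647 in the controls. Cenpf had 710, 566, 253 and 490 after agonistic CD40 mAb, and 670, 305, 580 and 638 in the controls. Both were lowest in 6R, as was Mki67. On the log2 scale, 6R differed from the mean of the other treated libraries by -1.59 for Cenpe, -1.35 for Mki67 and -1.20 for Cenpf, and the next lowest of the 42 was Kif11 with -0.22. Without 6R, the log2 fold changes of Cenpe and Cenpf went from -0.36 and -0.15 to 0.04 and 0.15. Their transcripts are the longest of the 42 together with that of Mki67, at 7.91, 11.1 and 10.1 kilobases. Among the 1654 genes with at least 8620 exon bases, as many as Cenpe, 11.4% were lowest in 6R, and among the 7818 shorter genes 4.23%. The median difference of 6R from the other treated libraries was -0.08 for the long genes. By exon bases 5 of the 42 reach this limit, and for the other 2, Top2a and Rrm1, the difference was -0.16 and 0.03. The length limit was chosen after these values had been seen, and the part of transcript length in them was not tested. Cenpa, the histone variant that marks the centromere, Aurkb, the kinase of the chromosomal passenger complex, and Birc5 (survivin), another member of that complex, had log2 fold changes of -0.01, -0.08 and -0.06.

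The proteins of the spindle and of cytokinesis had a median log2 fold change of -0.02. Kif11 is the motor that pushes the spindle poles apart, and Tpx2 activates Aurora A on the spindle. Kif11 had 792, 501, 513 and 534 normalized reads in the treated libraries and 767, 519, 615 and 606 in the controls, with the highest values in 5N and 5L, 1 of each group. Tpx2, the most abundant of this group in normalized reads, had 981, 761, 856 and 733 in the treated libraries and 997, 533, 882 and 842 in the controls, again with 7N lowest. The log2 fold changes were -0.11 (standard error 0.17) for Kif11 and 0.06 (standard error 0.19) for Tpx2, both within the spread between libraries. That of Kif11 was -0.27 without 5N and -0.01 without 5L, and that of Tpx2 was 0.17 without 5L and -0.13 without 7N. The motors Kif20a and Kif23 and the bundling proteins Nusap1 and Prc1, which organize the central spindle or the spindle microtubules, lay between -0.06 (Kif20a) and 0.05 (Kif23).

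The CDK inhibitors were the only role group with every member above 0 by sign, and neither passed the test. Cdkn1a encodes p21, which p53 switches on after damage, and Cdkn1b encodes p27, which keeps resting cells out of the cycle. Cdkn1a (chromosome 17, 29090976 to 29100727) had 989, 1112, 1254 and 1175 normalized reads after agonistic CD40 mAb and 850, 1575, 947 and 1066 in the controls. The control range covered all treated libraries, and the log2 fold change was 0.07 (standard error 0.18), 0.25 without 7N and -0.05 without 5L. Cdkn1b (chromosome 6, 134920401 to 134925513) had 456, 548, 584 and 577 after agonistic CD40 mAb, and 413, 633, 486 and 379 in the controls. Of the treated libraries 3 lay above all controls but 7N. The log2 fold change was 0.20 (standard error 0.17, exact permutation p = 0.286), 0.35 without 7N and 0.10 without 9L.

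**Figure D2:**
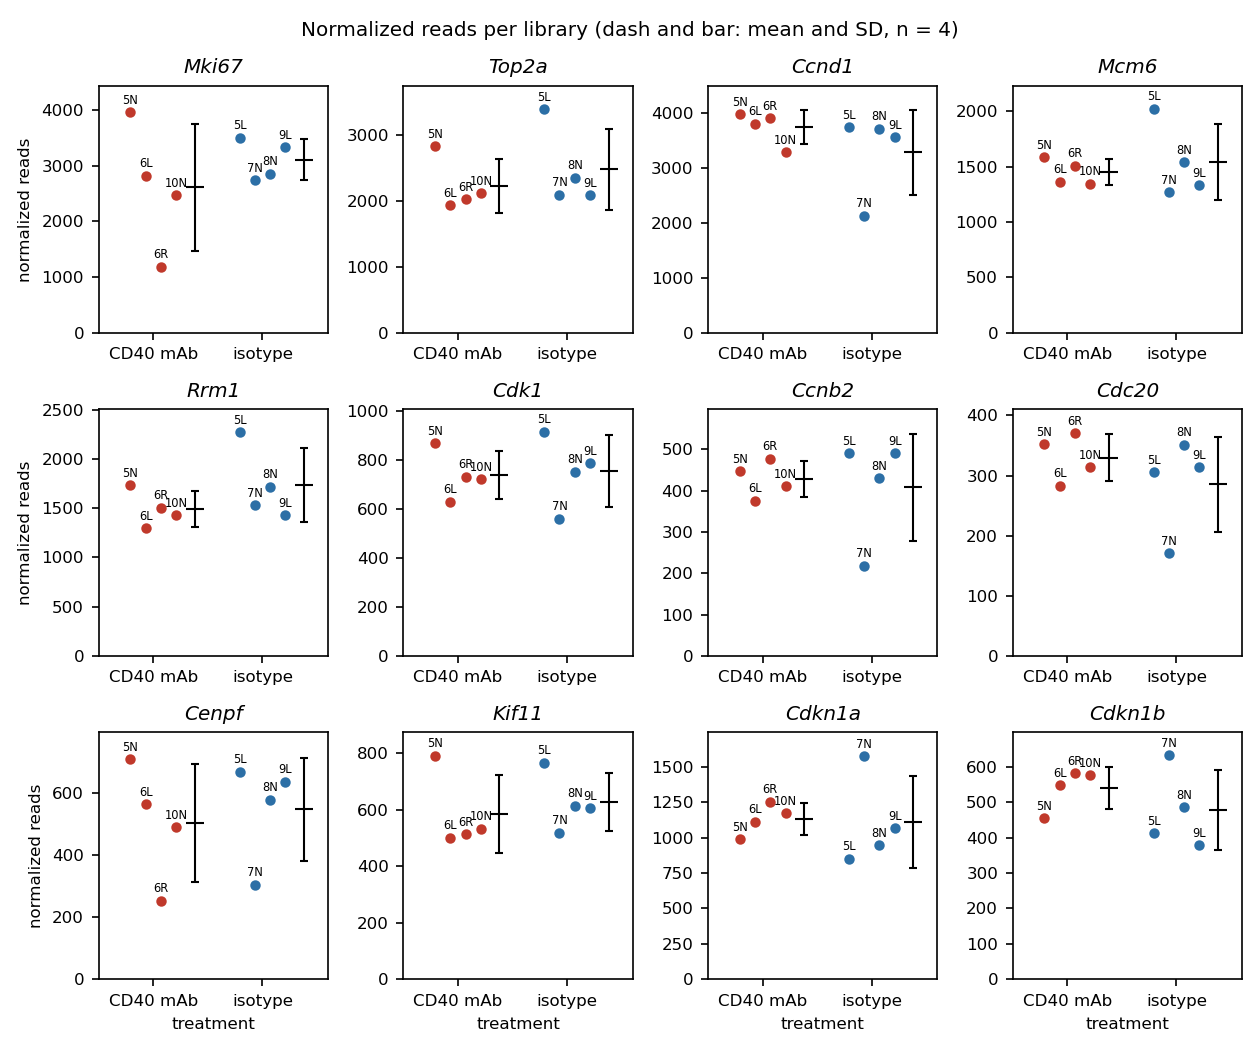
Normalized reads (vertical axis, starting at 0) of 12 of the genes in each library, by treatment, with the mean and SD of each group (n = 4) as a dash and bar. The groups overlap in all 12, and 5L or 5N is highest for most genes of replication and mitosis. Of the 12, 7N is lowest for Ccnd1, Mcm6, Cdk1, Ccnb2 and Cdc20, and 6R for Cenpf and Mki67.

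The clearest pattern in these genes lay within the isotype control group, between the libraries 5L and 7N. Leaving the CDK inhibitors aside, 5L had the highest value of all 8 libraries for 27 of 40 genes (67.5%), against 22.2% of the 9742 genes of comparable abundance, and 7N the lowest for 25 of 40 (62.5%), against 20.7%. These libraries were singled out after their values had been seen, genes are not independent replicates, and no test was made. The mean level of the 40 genes on the log2 scale was 9.27, 8.92, 8.98 and 8.98 in 5N, 6L, 6R and 10N, and 9.47, 8.65, 9.14 and 9.10 in 5L, 7N, 8N and 9L. The treated libraries lay within the range of the controls, which spanned 0.82 against 0.36 for the treated, and the group means, 9.04 ± 0.16 and 9.09 ± 0.34 (SD, n = 4), differed by -0.05. Cdkn1a ran the other way, lowest in 5L and highest in 7N, and Cdkn1b was also highest in 7N.

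**Figure D3:**
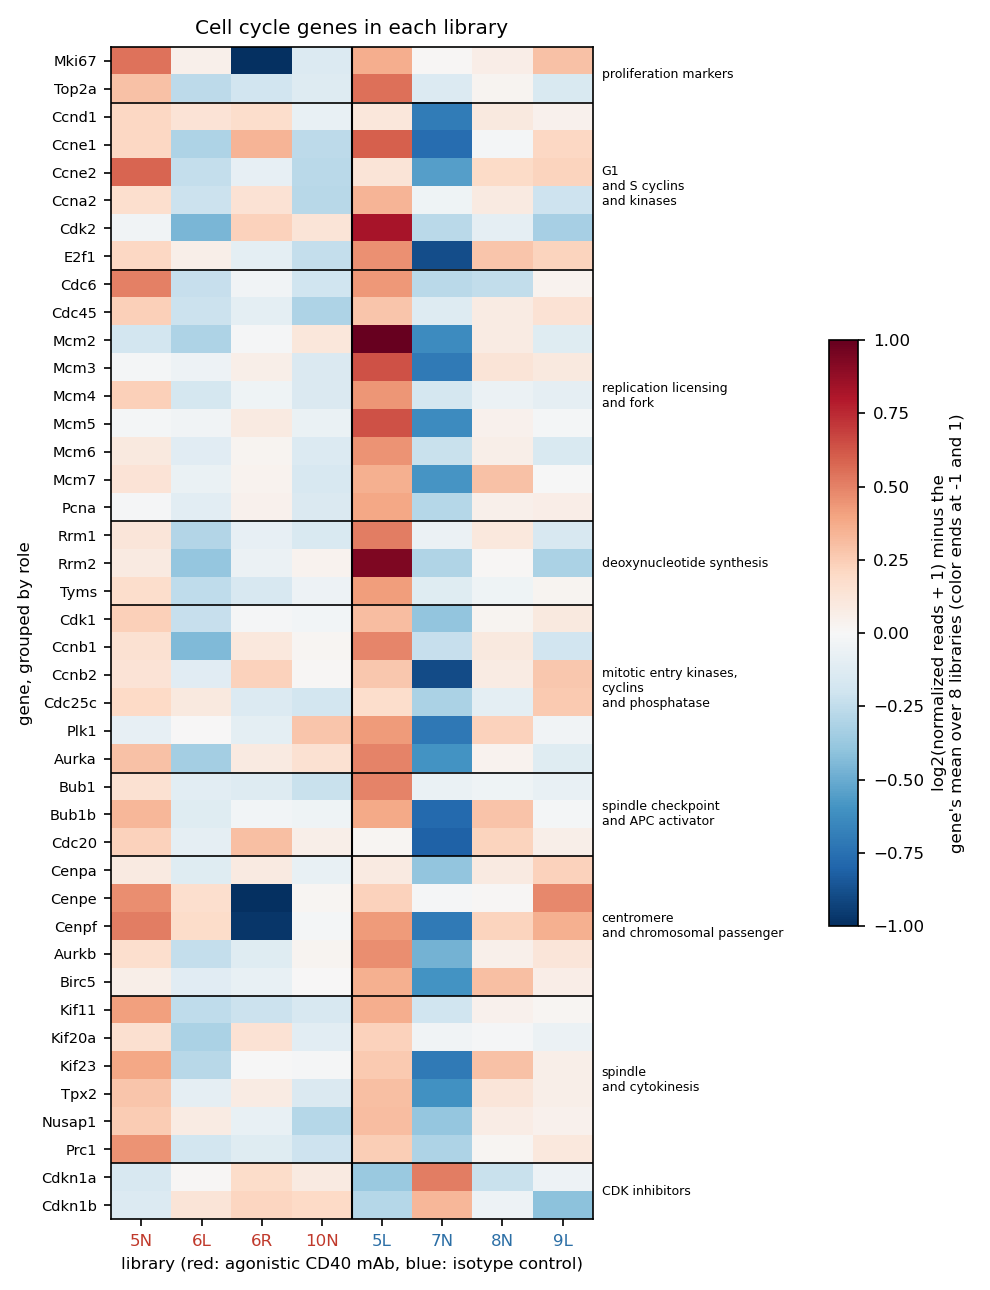
Deviation of each gene in each library from its own mean over the 8 libraries, in log2 units (red above, blue below, with color ending at -1 and 1), with genes grouped by role in rows and libraries in columns. The column of 5L is red and that of 7N blue across nearly all genes of replication and mitosis, both are reversed for the CDK inhibitors, and the 3 darkest cells of 6R are Mki67, Cenpe and Cenpf.

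Markers of several cell types also differed between 5L and 7N. The melanoma markers summed to 98888 normalized reads in 5L and to 40646 in 7N, where the other 6 libraries lay between 37496 and 64129, and all 10 were highest in 5L. The endothelial markers were lowest in 5L, at 39917, and next lowest in 7N, at 44098. Fibroblast markers were lowest in 5L as well, at 88497, and at 216730 in 7N, and mural cell markers were lowest in 5L and highest in 7N, at 11329 and 36095. The 2 libraries were also the shallowest, with 2971689 (5L) and 3446781 (7N) reads on genes. The part of melanoma cells, of the other cell types and of depth in the levels of the cell cycle genes was not tested. With both libraries left out, a comparison chosen after seeing the data, 0 of the 42 genes were called or reached an unadjusted limma p of 0.05, and their median log2 fold change was -0.07. It was 0.07 without 5L alone and -0.18 without 7N alone.

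**Figure D4:**
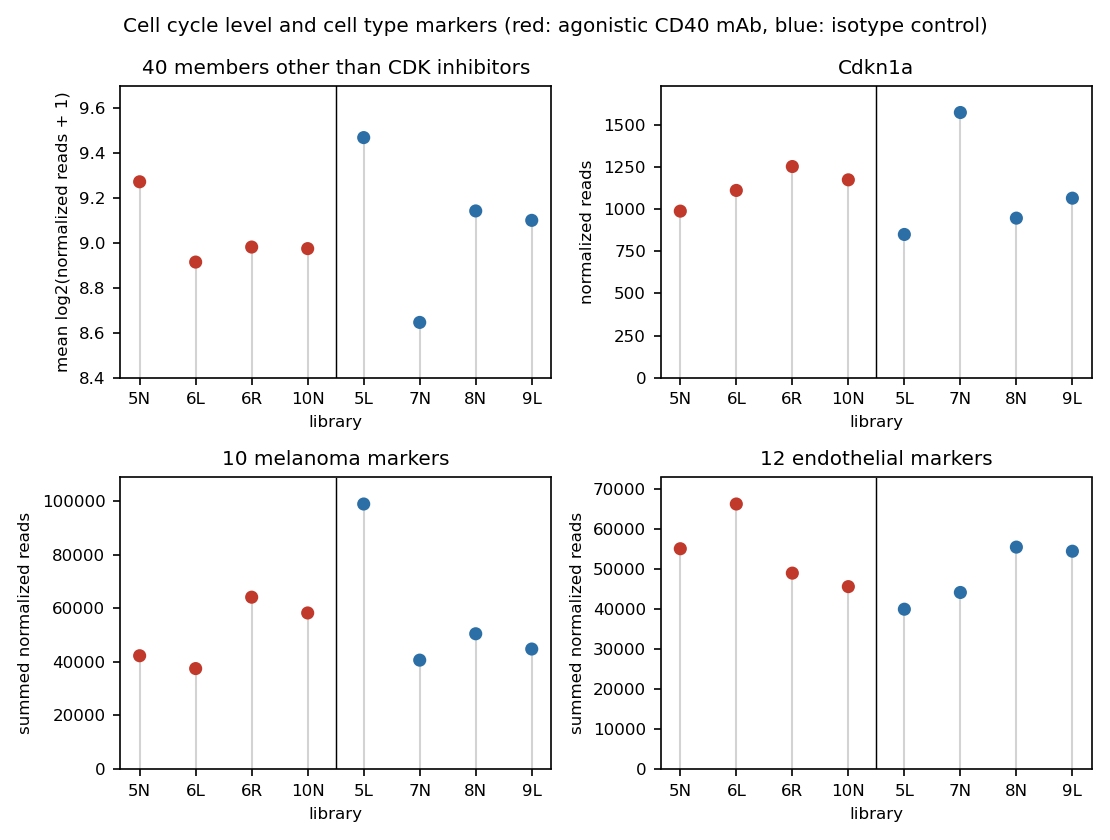
Mean log2 level of the 40 genes other than CDK inhibitors (axis not starting at 0), normalized reads of Cdkn1a, and summed normalized reads of 10 melanoma and 12 endothelial markers in each library, red for agonistic CD40 mAb and blue for isotype control. 5L is highest for the cell cycle genes and the melanoma markers and lowest for Cdkn1a and the endothelial markers, and 7N is lowest for the cell cycle genes and highest for Cdkn1a.

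Further genes of the cell cycle and targets of p53 showed no detectable change either. Of 162 such genes in 5 lists, 161 were tested with limma, 0 were called, where 1.28% of all genes tested were called higher and 0.239% lower, and 0 reached an unadjusted p of 0.05, where 2.01% did, with 77 above and 84 below 0 by sign. The 43 other genes of DNA replication had a median log2 fold change of -0.05, the 64 other genes of mitosis of 0.01, the 19 regulators of the E2F, RB and DREAM network of -0.01, the 18 other cyclins, kinases and inhibitors of G1 of -0.03, and the 17 tested targets of p53 of 0.01. The gene with the lowest p in each list was Timeless, a protein that stabilizes replication forks, with a log2 fold change of 0.35 (613 ± 62.3 against 492 ± 139 normalized reads, SD, n = 4), Cenpk, a protein of the inner kinetochore, with -0.45 (43.0 ± 4.87 against 59.6 ± 11.2), Lin52, a MuvB subunit, with 0.29, the G1 kinase Cdk6 with -0.12, and Bbc3, which encodes the p53-induced death factor PUMA, with -0.75. Cenpk was the only one of the 161 whose groups did not overlap, at 50.3, 40.7, 40.9 and 40.1 after agonistic CD40 mAb and 51.3, 76.1, 54.5 and 56.6 in the controls (exact permutation p = 0.0286, the smallest this design allows, limma p = 0.0666), where 1.57% of all genes tested had groups that did not overlap. Bbc3 rested on as few as 4 reads in a library. By library, 5L was highest for 29 and 7N lowest for 28 of the 43 replication genes, and 5L was highest for 22 and 7N lowest for 34 of the 64 mitosis genes, beside 22.2% and 20.7% of the 9742 genes at least as abundant as Cdc25c, a limit that some genes of these lists do not reach. The treated library 5N was highest for 19 of the 64 mitosis genes, beside 9.18% of the 9742 genes. For the E2F, RB and DREAM regulators 5L was highest for 4 and 7N lowest for 6 of 19, and 5N was highest more often, for 6. For the other G1 genes 5L was highest for 5 of 18, as often as 9L, and 7N lowest for 7. For the p53 targets 5L was lowest for 10 and 7N highest for 9, beside 30.1% and 27.5% of the 9742 genes.

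**Figure D5:**
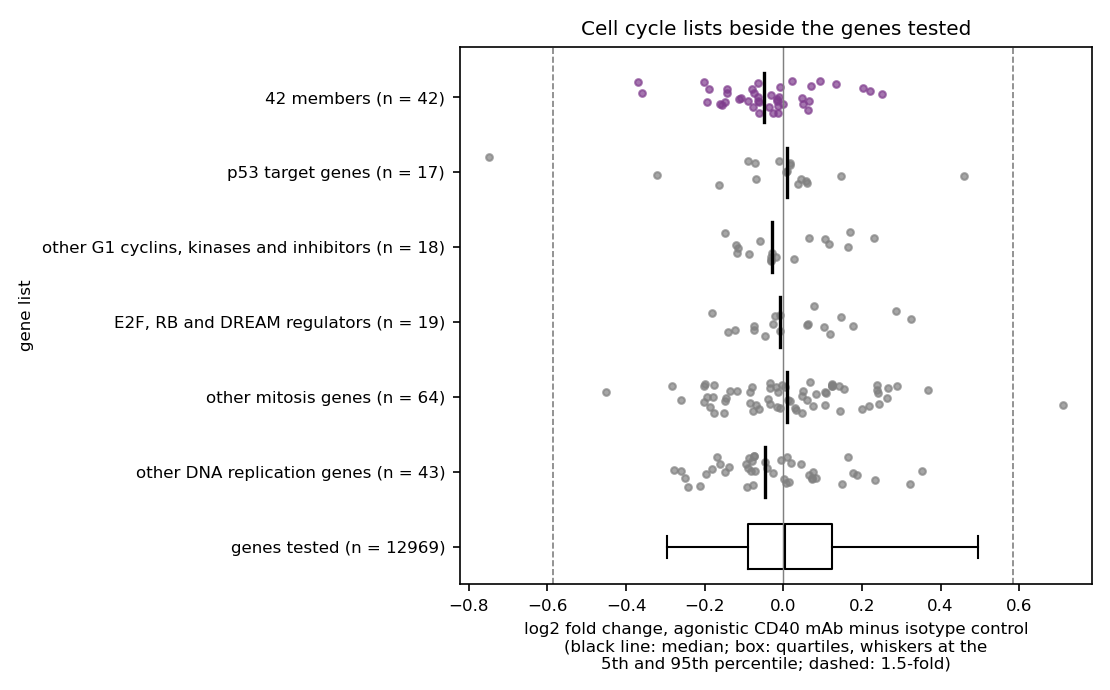
Log2 fold change, agonistic CD40 mAb minus isotype control (horizontal axis), of the 42 genes, of 5 further lists and of all 12969 genes tested. The further lists hold cell cycle genes and p53 targets. Listed genes are points with the median as a black line. The genes tested are a box with quartiles and whiskers at the 5th and 95th percentile. The points center near 0, and none of the 42 reaches the dashed lines at 1.5-fold.

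The libraries were made with a kit that does not keep the strand, so reads of overlapping genes on opposite strands cannot be separated. Exons of 13 of the 42 genes overlap a gene on the opposite strand, among them Ccnd1, Ccne2, Ccna2, Kif20a and Prc1. In 10 of the 42 at least 10% of the 50-base windows of their transcripts also occur in another gene, with Kif20a (25.2%, overlapping Cdc23), Ccnb1 (23.4%, pseudogene Ccnb1-ps), Mcm7 (23.3%), Ccnd1 (21.6%) and Pcna (19.1%, pseudogene Pcna-ps2) the highest, and their values are less certain for this reason.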

How the data were processed

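The authors mapped reads to mm10 using TopHat2, counted them by gene with Partek (version 6.6 in the submitters' processing notes) and scaled the counts with DESeq2. The deposited signal gives a normalized value for each gene in each library. Within a library these values step by the worth of 1 read, from which reads were recovered, and for 99.9% of values the recovered number was whole to within 0.1 read. A described correction for harvest day and flooring at 1 are not visible in the values. Reads carry no molecular identifiers, so depth covers counting error only.

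On log2(value + 1), limma 3.58.1 (R 4.3.3) was fitted with a variance trend and treatment as the only term, for the 12969 genes with a mean above 10 in either group, with Benjamini-Hochberg adjustment. Such fold changes understate the change of genes with few reads. Genes were called where group means differed at least 1.5-fold and the unadjusted p did not exceed 0.05. Means, SD and ratios refer to normalized reads without logarithm. For single genes, a two-sided exact permutation test used the 70 assignments. Genes were matched to GENCODE M21 on GRCm38 for 96.1% of symbols, and level per kilobase uses the longest protein-coding transcript. The scripts were tested on simulated data. Each library is a separate tumor, and no pair of libraries agreed within sampling noise (chi-square per degree of freedom between 8.19 and 75.9 within groups).

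The members, gene lists and tests were chosen with earlier results of these data known. Genes with values per library are every member past the call rule, in each role group the member with the lowest p and the one with the largest mean, and Mki67, Top2a, Ccnd1, Cdkn1a and Cdkn1b; from the further lists, called genes and the gene with the lowest p. Cdk2, Pmel and Cenpk's separate groups were singled out after their values had been seen. Alternatives were pseudocounts of 0.1 and 10, no filter, a limit of 50, quantile normalization, TMM factors, limma without the trend or with library quality weights, edgeR 4.0.16 and DESeq2 1.42.0 on recovered reads, leaving out each library, and leaving out 5L and 7N together, which was chosen after seeing the data.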

Additional observations from a re-analysis of the deposited data

Results flagged for a closer look

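Of 124 values looked at (42 genes, role means and summed markers, in each of 2 groups of 4 libraries), 9 had a highest or lowest library far from the other 3 of its group by Dixon's criterion on the log2 scale, where chance gives about 1 in 20. In the agonistic CD40 mAb library 5N, Kif11 was at 792 normalized reads against 501 to 534 in the other treated libraries, and Prc1 at 919 against 582 to 617. In the isotype control library 7N, Ccnd1 was at 2130 against 3560 to 3750, Ccne2 at 92.8 against 149 to 159, and Ccnb2 at 219 against 430 to 492. In the isotype control library 5L, Bub1 was at 682 against 460 to 468 and Kif20a at 635 against 520 to 538. Among markers, the summed lymphatic endothelial genes stood at 5700 in the treated library 6L against 3250 to 3480, and the summed T and NK cell genes at 0 in 5L, the shallowest library, against 6.81 to 10.2. Mki67, Cenpe and Cenpf in 6R did not meet the criterion.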

How the results depend on the processing

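None of the 42 genes was called under any of the 10 settings tried with all libraries, without any single library, or without 5L and 7N together. The named genes kept their sign in 284 of 304 values, and none of the 304 was called. With library quality weights, Bub1b (-0.142) and Tpx2 (-0.0596) changed sign on the log2 scale. With 5L and 7N left out together, Bub1b (-0.095), Ccnb2 (-0.109), Cdc20 (-0.0177), Mcm6 (0.0148) and Tpx2 (-0.059) changed sign, and 1 gene of the further lists, Cdkn2a, was called lower. Over the fits that each left out 1 library, the log2 fold change ranged from -0.178 to 0.208 for Bub1b, from -0.14 to 0.248 for Ccnb2, from -0.151 to 0.084 for Cdk1, from -0.0489 to 0.247 for Cdkn1a, from -0.575 to 0.0396 for Cenpe, from -0.41 to 0.15 for Cenpf, from -0.151 to 0.0738 for Mcm6, from -0.613 (without 5N) to -0.0322 (without 6R) for Mki67, from 0.0253 to 0.297 for Ccnd1, from 0.0221 to 0.366 for Cdc20, from -0.301 to -0.119 for Cdc45, from 0.0996 to 0.346 for Cdkn1b, from -0.266 to -0.01 for Kif11, from -0.289 to -0.0664 for Rrm1, from -0.265 to 0.016 for Top2a and from -0.129 to 0.172 for Tpx2. In these fits the median of the 42 ranged from -0.18 (without 7N) to 0.07 (without 5L), the members at an unadjusted p of at most 0.05 from 0 to 3, and the calls among the further lists from 0 to 1 (Bbc3 without 10N, Orc1 without 7N, both lower). Calls among all genes numbered 197 in the main comparison, 424 with no filter, 130 with a limit of 50, and between 153 and 286 without 1 library. Of them 31 were lower in the main comparison, 70 with library quality weights and 123 without 5L. The cause of these shifts was not tested. No paired analysis was possible because the labels give no replicate numbers, and of the mouse numbers the groups share only that of 5N and 5L. Within the treated group 6L and 6R share a number as well, and the meaning of a shared number was not given in the sources used here.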
